A study of Xenopus laevis with 72 samples.

Results

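The hour between 5.5 and 6.5 hours post fertilization (hpf) in Xenopus laevis embryos depleted of Cxxc1 was examined in 12 RNA-seq libraries of 72 in the series, namely the 6 libraries of Cxxc1 morpholino (MO) embryos at 6.5 hpf and the 6 at 5.5 hpf. These are all libraries whose labels name the Cxxc1 MO and either of the 2 ages, and no measured value entered the choice. The embryos were wild type and at the 1-cell stage received 9.2 nl of a morpholino at 1 mM that blocks translation of cxxc1 mRNA, so the protein and not the transcript is the target. They were set against Ctrl MO embryos, which received the same volume of a control morpholino (6 libraries at 6.5 hpf and 6 at 5.5 hpf), and against Kmt2b MO embryos, in which the H3K4 methyltransferase Kmt2b was targeted in the same way (also 6 and 6). Uninjected embryos (NI Ctrl, 6 and 6) served to choose genes and, beside single values, as a further reference. Every group held 2 biological replicates from different frogs with 3 sets of 3 pooled embryos each. The 3 sets of a frog are siblings, so the p-values below rest on sets of 2 clutches. The fit of the hour within a group had no term for a different change in each frog. Its spread therefore holds that difference as well as the spread between sets. The 2 ages lie 1 and 2 hours after the 256-cell stage.

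Before zygotic genome activation (ZGA) the embryo lives on RNA and protein that the mother deposited in the egg. At ZGA its own genome is switched on, and many maternal RNAs are cleared. Cxxc1, also known as CFP1, is the subunit that brings the Setd1 methyltransferase complexes to unmethylated CpG islands through its CXXC zinc finger. These complexes place trimethylation on lysine 4 of histone H3 (H3K4me3), the mark of active and poised promoters. In the frog the first zygotic genes include the Nodal ligands and the Mix, Bix and Sox17 factors of the mesendoderm, the Siamois and Not homeobox genes of the organizer, and the Ventx, Foxi and Pou5f3 factors of pluripotent and ectodermal cells.

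Cxxc1 MO embryos switched on the early zygotic genes in this hour in both frogs. By limma on log2(TPM + 1) with the frog as a covariate and Benjamini-Hochberg adjustment, 539 of 18059 tested entries rose (2.98%) and 3614 fell (20.0%). Changes in size were one-sided: 158 entries at least doubled on this scale (0.875%), of which 94 were protein-coding, while 19 were at least halved (0.105%), of which 0 were protein-coding. The median change of all tested entries was -0.15 on the log2 scale, and the count of falling genes depends on that shift. Leaving out 1 library at a time gave between 1054 and 7086 falls but between 148 and 170 doubled entries. With each library centred on its median gene, 1658 entries rose and 979 fell, while all 94 protein-coding genes still doubled. The same hour gave 610 risen and 420 fallen entries in Ctrl MO embryos, with 192 at least doubled (1.06%) and 11 at least halved.

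The libraries held maternal and early zygotic RNA, and most markers of differentiated cells were near 0. They come from whole embryos, so fewer cells of a type and less RNA per cell cannot be told apart. The tables hold TPM, a share of transcripts corrected for length that keeps no read depth and gives no counting error, and between 18260 and 18867 entries reached 1 TPM per Cxxc1 MO library. Protein-coding genes took 76.9% to 80.6% of TPM at 6.5 hpf in biological replicate 2, against 85.2% to 88.6% at 5.5 hpf. In biological replicate 1 the order was the opposite, with 80.9% to 86.1% at 6.5 hpf against 75.1% to 81.1% at 5.5 hpf. The transcript of cxxc1.S, the homeolog analysed here, measured 18.7, 22.9 and 27.7 TPM (lowest, median and highest library) at 6.5 hpf and 19.9, 22.3 and 29.7 TPM at 5.5 hpf in Cxxc1 MO embryos, which says nothing of the protein. Summed over the 11 entries of the maternal marker genes, the level was 3036 to 3823 TPM at 6.5 hpf against 3365 to 3914 TPM at 5.5 hpf, and over the 19 entries of the zygotic marker genes 116 to 196 TPM against 59.0 to 79.0 TPM. The entry pou5f3.2.L alone held 53.2 to 77.3 TPM of the zygotic sum at 6.5 hpf and 46.6 to 57.7 TPM at 5.5 hpf. It made up most of the sum at 5.5 hpf. Of 42 entries for markers of differentiated cells, 37 stayed under 1 TPM in all 12 libraries and 0 of the 4 tested passed the test. Among these 4 the muscle regulator gene myod1.L had 4.16 to 9.93 TPM at 6.5 hpf against 2.50 to 7.03 TPM at 5.5 hpf.

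The 12 named genes with the largest rise, taken among genes that averaged at least 5 TPM at 6.5 hpf in both frogs, were transcription factors for the most part. Genes under that level, such as ventx2.1.S and not.S, rose more than several of them. For none of the 12 did the 6.5 hpf libraries overlap with the 5.5 hpf libraries. Across all tested entries 1.27% showed this separation upward. The 12 were chosen for their rise in these same libraries, so the separation is not separate evidence of it. The gene hes7.1.L, a basic helix-loop-helix repressor of the Hes family (chromosome 3L, 153414972 to 153417163, assembly v10.1), had 6.81, 12.2 and 27.5 TPM (lowest, median, highest) at 6.5 hpf, against 0, 0.688 and 2.48 TPM at 5.5 hpf. It rose by 3.00 ± 0.26 on the log2 scale (limma, SE, adjusted p = 8.78e-06), about 8.03-fold in TPM + 1. The added 1 makes this smaller than the ratio of the TPM themselves. The gene gs17.L (chromosome 9_10L, 2362460 to 2364238) rose by 3.02 ± 0.17 and had 11.0, 15.2 and 28.1 TPM at 6.5 hpf against 0.469, 1.16 and 1.88 TPM at 5.5 hpf. The lowest 6.5 hpf library of gs17.L lay well above the highest 5.5 hpf library, and the same holds for foxh1.2.L, a forkhead factor gene related to the Nodal cofactor foxh1 (chromosome 6L, 163332297 to 163338123), with 7.69, 13.1 and 24.5 TPM at 6.5 hpf against 0.545, 0.874 and 1.14 TPM at 5.5 hpf.

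**Figure D1:**
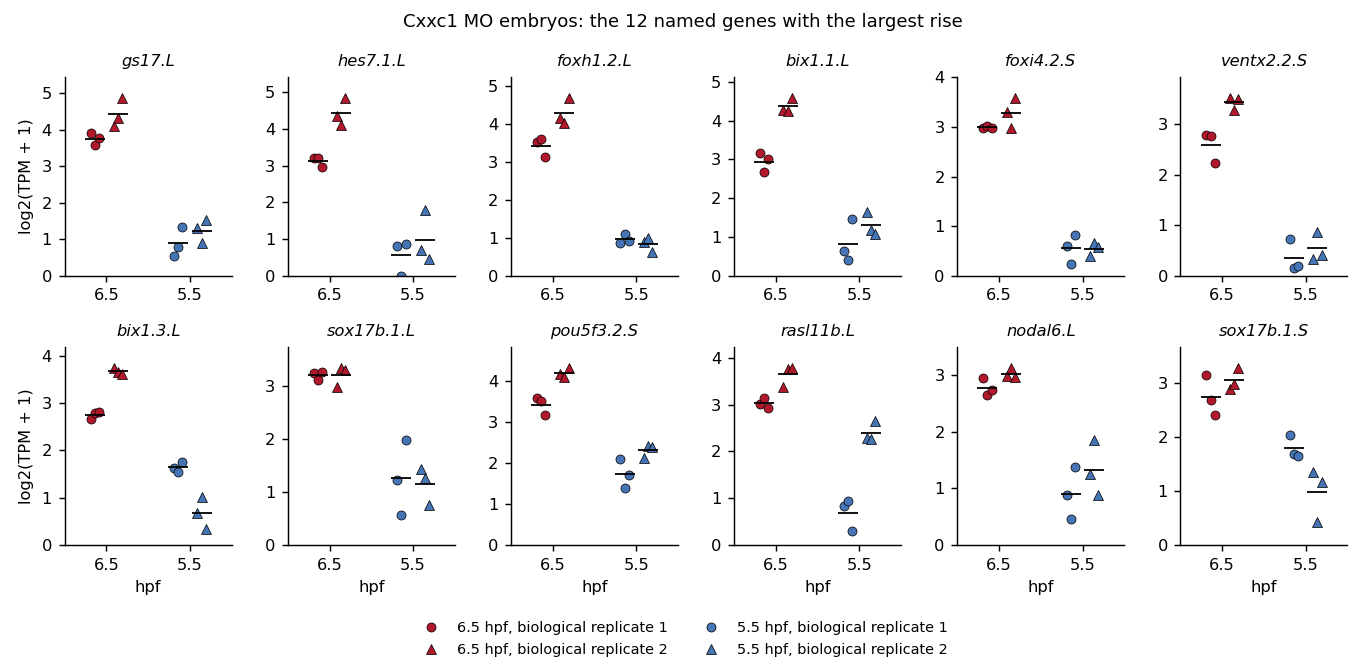
Log2(TPM + 1) in each Cxxc1 MO library for the 12 named genes with the largest rise among those of at least 5 TPM at the higher age in both frogs; red marks 6.5 hpf and blue 5.5 hpf, circles are the 3 sets of biological replicate 1 and triangles those of biological replicate 2, and lines are means of 3 sets. In every panel all 6 libraries of 6.5 hpf sit above all 6 of 5.5 hpf, and bix1.3.L and sox17b.1.S show the gap widest in biological replicate 2.

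Among the 94 doubled protein-coding genes, 51 lay under 1 TPM at 5.5 hpf in both frogs, 34 between 1 and 5 TPM in the higher frog, and 9 at or above 5 TPM. Their median change was 1.78 on the log2 scale. Of the 94, 85 had all 6 libraries of 6.5 hpf above all 6 of 5.5 hpf, as had 1.27% of all tested entries. All 94 had a positive change in each frog on its own. The 94 were chosen for their rise in these same libraries, so neither count is separate evidence of it. The largest change of a protein-coding entry belonged to LOC121395360 on chromosome 7L (27446713 to 27452098), singled out after its values were seen, with 25.9, 43.1 and 77.0 TPM at 6.5 hpf against a lowest library near 0, a median of 0.876 and a highest of 2.98 TPM at 5.5 hpf. Over all chromosomes, 94 of 16539 tested protein-coding genes doubled. Chromosomes 3L and 3S held the most, 16 of 1159 and 14 of 942. Neighbouring copies, such as the Nodal genes on 3L, each count in these numbers. Among the doubled genes on 3S, 5 entries had the same value in every library, so the 94 genes give 90 distinct profiles.

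All 6 tested Nodal ligand entries rose, of 11 in the list, and the other 5 were at most 0.575 TPM in any of the 12 libraries. Nodal proteins are secreted TGF-beta ligands, most of which induce mesoderm and endoderm through Smad2. Of the 67 entries of the list of Nodal ligands and mesendoderm regulators, 27 were tested. Of these 19 rose (70.4%, beside 2.98% of all tested entries), 18 of them at least doubled, and 1 fell (3.7%, beside 20.0%). This list, like the other chosen lists below, was made with earlier results of these data known. Such shares are therefore not separate evidence. The other 40 entries lay below the filter, a mean of at least 1 TPM in each frog over all groups and both ages. A member under 1 TPM at 5.5 hpf in every group passed it only if it was higher at 6.5 hpf in at least 1 group. That group need not be the Cxxc1 MO. These counts therefore describe the tested members and not the list. The gene nodal6.L (chromosome 3L, 140262290 to 140264258) had 5.26, 6.71 and 7.67 TPM at 6.5 hpf against 0.383, 1.11 and 2.62 TPM at 5.5 hpf, and rose by 1.77 ± 0.17. All 6 later libraries were higher than all 6 earlier ones, as they were for nodal5.L, nodal5.2.L, nodal3.1.L, nodal3.2.L and nodal6.S, whose changes ranged between 1.32 (nodal6.S) and 1.82 (nodal3.2.L). On chromosome 3L nodal5.L, nodal5.2.L and nodal6.L lie in 1 stretch between 140237716 and 140264258, and nodal3.1.L and nodal3.2.L in another between 141478446 and 141491425. These tandem copies are alike in sequence, so the share of reads given to each is uncertain. The Nodal-related ligand gene gdf3.S rose too, by 1.77 ± 0.23.

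Members of the Mix, Bix and Sox17 families rose too. The Mix and Bix homeobox genes pattern the mesendoderm, and 3 of them, bix1.3.L, bix1.1.L and mix1.L, sit next to each other on chromosome 5L between 17988780 and 18005890. Of these, bix1.1.L had 5.34, 13.0 and 22.8 TPM at 6.5 hpf against 0.318, 1.18 and 2.15 TPM at 5.5 hpf, a rise of 2.59 ± 0.22. The homeologs on chromosome 5S followed with smaller values: bix1.1.S rose by 1.77, bix1.2.S by 1.81, bix1.3.S by 1.95 and mix1.S by 1.88. The SoxF gene sox17b.1.L, which specifies endoderm, had 6.87, 8.51 and 9.12 TPM at 6.5 hpf against 0.483, 1.38 and 2.96 TPM at 5.5 hpf (rise of 2.00 ± 0.20), and its neighbour sox17a.L rose as well, as did sox17a.S, by 1.54. The weakest of the 19 was mixer.L, another homeobox gene of this family, with 1.54 to 2.38 TPM at 6.5 hpf against 0.66 to 1.40 TPM at 5.5 hpf (rise of 0.53 ± 0.12).

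Known maternal regulators of these genes were at higher levels at both ages and did not pass the test, apart from gdf1.S. The transcripts of vegt.L, the maternal T-box factor of the vegetal cells, measured 235, 291 and 339 TPM at 6.5 hpf against 268, 307 and 349 TPM at 5.5 hpf (change of -0.12 ± 0.09, adjusted p = 0.326 in limma). Those of foxh1.L measured 218, 226 and 249 TPM against 207, 248 and 286 TPM. The maternal ligand gene gdf1.S was the 1 member that fell, by 0.22 ± 0.06, with overlapping libraries of 25.3 to 57.5 TPM at 6.5 hpf and 29.8 to 59.0 TPM at 5.5 hpf. With each library centred on its median gene the change of gdf1.S was -0.06 and did not pass the test.

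Several other mesendoderm genes did not pass the test or the filter. The gene gata5.L, an endodermal GATA factor, had 0.912 to 1.67 TPM at 6.5 hpf against 1.34 to 2.48 TPM at 5.5 hpf, and tbxt.S, the Brachyury gene of the mesoderm, had 0.672 to 1.83 TPM against 0.81 to 2.39 TPM. Neither passed the test. Among the 40 members below the filter, the highest value in any of the 12 libraries was 3.199 TPM for fgf8.S, 2.24 TPM for wnt8a.L, 2.17 TPM for foxa1.S, 1.97 TPM for fgf4.L and 1.87 TPM for foxa4.L. At the low end it was 0.189 TPM for gata4.L, 0.06 TPM for gata6.L, 0.671 TPM for eomes.S and 0.881 TPM for tbxt.L.

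Among organizer genes the homeobox genes sia1.L, sia2.S and not.S rose, while not.L, at a higher level, changed by 0.01. Of 30 entries 10 passed the filter. Of these 3 rose (30%, beside 2.98% of all tested entries), all of them doubled, and 0 fell (0%, beside 20.0%). A member under 1 TPM at 5.5 hpf in every group passed the filter only if it was higher at 6.5 hpf in at least 1 group. The shares are therefore those of the tested members and not of the list, which was chosen with earlier results known. The Wnt target sia1.L, a homeobox activator of the organizer (chromosome 3L, 153185304 to 153186993), had 2.99, 5.49 and 10.5 TPM at 6.5 hpf against 0, 0.62 and 1.48 TPM at 5.5 hpf, a rise of 2.05 ± 0.21. Its relative sia2.S rose by 1.67 ± 0.18. The notochord homeobox gene not.S had 3.79, 7.06 and 11.2 TPM at 6.5 hpf against 0, 0.46 and 0.75 TPM at 5.5 hpf (rise of 2.50 ± 0.18). The BMP antagonist gene nog.L, with 0.872 to 2.28 TPM at 6.5 hpf against 0.941 to 2.06 TPM at 5.5 hpf, did not pass the test, and below the filter the highest library was 2.81 TPM for dkk1.S, 2.22 TPM for admp.L, 0.222 TPM for gsc.L, 1.44 TPM for gsc.S, 1.05 TPM for chrd.1.L and 0.362 TPM for cer1.S.

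Regulators of pluripotent and ectodermal cells had 7 risen entries, and without centring their share of falls was near that of all tested entries. Of 66 entries 31 passed the filter. Of these 7 rose (22.6%, beside 2.98% of all tested entries), all of them doubled, and 6 fell (19.4%, beside 20.0%). With centred libraries 10 rose and 4 fell (32.3% and 12.9%, beside 9.18% and 5.42%). These shares describe the tested members only, of a list chosen with earlier results known. Tested alone, biological replicate 1 had 0 falls among them and biological replicate 2 had 14, beside 35 and 9792 over all 18059 entries. The forkhead gene of the ectoderm foxi4.2.S (chromosome 1S, 9249750 to 9252609) had 6.84, 7.02 and 10.9 TPM at 6.5 hpf against 0.173, 0.509 and 0.763 TPM at 5.5 hpf, a rise of 2.59 ± 0.13. Of like size were the rises of ventx2.1.S (2.60) and ventx2.2.S (2.56), BMP-responsive homeobox genes that stand beside each other on chromosome 7S between 16903309 and 16928499, and foxi4.2.L (2.37). The POU factor gene pou5f3.2.S (chromosome 8S, 27584027 to 27587612) had 8.08, 13.6 and 19.1 TPM at 6.5 hpf against 1.63, 3.33 and 4.37 TPM at 5.5 hpf, a rise of 1.79 ± 0.12. At lower levels foxi1.L rose by 1.21 ± 0.13, with a median of 2.12 TPM at 6.5 hpf and 0.283 TPM at 5.5 hpf. The neural plate zinc finger gene zic1.S rose by 1.13 ± 0.16, with medians of 2.02 TPM and 0.348 TPM.

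The genes sox3.L and pou5f3.2.L did not pass the test. The gene sox3.L, a SoxB1 factor of the pluripotent cells, had 498, 522 and 587 TPM at 6.5 hpf against 468, 509 and 569 TPM at 5.5 hpf. The homeolog pou5f3.2.L measured 53.2, 63.3 and 77.3 TPM against 46.6, 56.6 and 57.7 TPM (change of 0.23 ± 0.09, adjusted p = 0.07 in limma). With centred libraries both passed, with changes of 0.21 for sox3.L and 0.39 for pou5f3.2.L. The 6 members that fell were klf2.L, klf2.S, klf5.L, grhl1.L, lin28b.L and lin28b.S, by 0.29 to 0.40 on the log2 scale.

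Response genes of the signalling pathways had 2 risen members, both of the Hes family. Of 63 entries for BMP, FGF, Wnt and Notch response genes 34 were tested. Of these 2 rose (5.88%, beside 2.98% of all tested entries), both doubled, and 9 fell (26.5%, beside 20.0%). With centred libraries 7 rose and 3 fell (20.6% and 8.82%, beside 9.18% and 5.42%). Here too a member under 1 TPM at 5.5 hpf in every group passed the filter only if it was higher at 6.5 hpf in at least 1 group. The shares are those of tested members. Tested alone, biological replicate 1 had 0 falls in this list and biological replicate 2 had 11, beside 35 and 9792 over all 18059 entries. The gene hes7.2.L lies close to hes7.1.L on chromosome 3L (153381812 to 153384383) and had 1.56, 2.69 and 3.55 TPM at 6.5 hpf against 0, 0 and 0.279 TPM at 5.5 hpf, a rise of 1.70 ± 0.13. The largest fall was that of szl.S (sizzled, a feedback inhibitor of BMP signalling), with 9.80, 14.7 and 19.2 TPM at 6.5 hpf against 15.3, 21.9 and 28.5 TPM at 5.5 hpf (change of -0.53 ± 0.08). The libraries of the 2 ages overlapped for szl.S and spry2.S and did not for hes4.S. The gene hes4.S fell by 0.44 and spry2.S, an inhibitor of FGF signalling, by 0.39. With centred libraries szl.S and hes4.S still fell, while spry2.S did not pass the test.

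The p53 response list, which covers damage-responsive genes, had 2 rises and 10 falls among 31 tested of 37 entries (6.45% and 32.3%), beside 2.98% and 20.0% of all tested entries. With centred libraries 4 rose and 2 fell (12.9% and 6.45%), beside 9.18% and 5.42% of all. The filter passed members under 1 TPM at 5.5 hpf in every group only if they were higher at 6.5 hpf in at least 1 group. The shares are those of tested members. Tested alone, biological replicate 1 had 0 falls in this list and biological replicate 2 had 19, beside 35 and 9792 over all 18059 entries. The 2 that rose were the homeologs gadd45g.L and gadd45g.S, members of the Gadd45 growth arrest family. The level of gadd45g.L was 2.94, 3.88 and 4.59 TPM at 6.5 hpf against 0, 0.209 and 0.385 TPM at 5.5 hpf, a rise of 2.00 ± 0.12, and gadd45g.S rose by 2.14 ± 0.14. The change of gadd45g.L was 2.51 in Ctrl MO and 2.72 in NI Ctrl embryos. The kinase gene plk3.S fell by 0.53 ± 0.09, with 84.5 to 127 TPM at 6.5 hpf against 138 to 156 TPM at 5.5 hpf, and gadd45a.S by 0.60 ± 0.10.

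**Figure D2:**
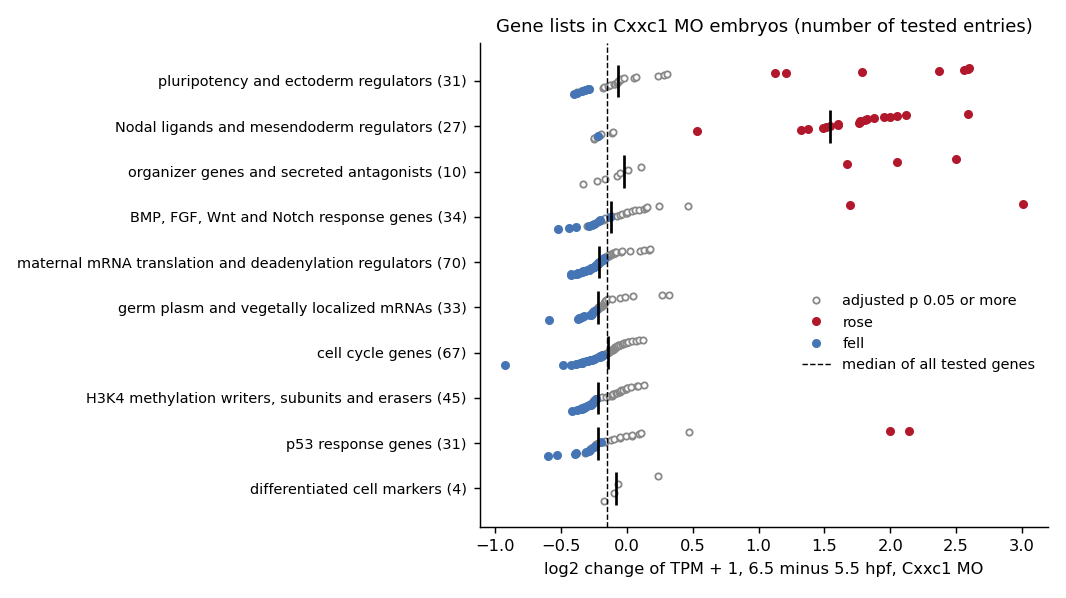
Change of log2(TPM + 1), 6.5 minus 5.5 hpf, in Cxxc1 MO embryos for each tested entry of the 10 gene lists with tested members; red points rose and blue points fell at an adjusted p under 0.05, open points did not pass, short black lines are list medians and the dashed line is the median of all tested entries (-0.15). Members below the filter are not drawn, so the medians of lists with many low genes describe the drawn points only. All red points lie at 0.53 or above, and ccnb3.S, a cell cycle gene at -0.92, is the leftmost blue point.

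Homeologs, the paired genes of the L and S subgenomes, were compared where both passed the filter. Of 4316 such gene pairs with both homeologs tested, 11 had both doubled and 5 had 1 doubled, and 67 of the 94 doubled genes belonged to no such pair, some because the filter removed a low homeolog (hes7.1.S, zic1.L and foxi1.S, for example). The 2 counts therefore do not tell how often homeologs switch on together. The 5 pairs with 1 doubled member, named after their values were seen, were btg5.2, cxcr4, klhl24, not and pou5f3.2. In cxcr4, a chemokine receptor gene, the other homeolog rose as well, with cxcr4.L up by 1.71 ± 0.20 and cxcr4.S by 0.97 ± 0.14. In not and btg5.2 the S gene was under 1 TPM at 5.5 hpf and the L gene was not. The level of not.L was 33.1 to 35.7 TPM at 6.5 hpf and 26.1 to 41.7 TPM at 5.5 hpf, and btg5.2.L had 14.0 to 32.5 TPM and 18.1 to 35.2 TPM. For btg5.2.S these were 1.53 to 8.05 TPM at 6.5 hpf and 0 to 0.411 TPM at 5.5 hpf. The entries klhl24.S and klhl24.L are annotated on chromosomes 3L and 5L, so these 2 are not at matching places of the subgenomes.

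Non-coding entries made up the rest of the doubled and all of the halved set. The doubled ones were 39 of 185 tested snRNA, 15 of 561 lncRNA and 9 of 365 snoRNA entries, beside 158 of all 18059, and 1 entry matched no reference gene. The halved ones were 9 snoRNA, 6 snRNA, 2 lncRNA, 1 rRNA and 1 guide RNA entry, beside 19 of all 18059. Some calls rest on libraries near 0 or on 1 frog. The doubled snoRNA LOC121403567 had 0, 6.33 and 12.5 TPM at 6.5 hpf and changed by 0.06 in Ctrl MO embryos. The halved lncRNA LOC121393550 changed by -2.98 in biological replicate 1 and by -0.002 in biological replicate 2. Of the 39 snRNA entries 37 had the same value in every library. They stand on chromosome 8L between 111695612 and 111802076 and reads were not resolved among them. Whether reads were also shared between these entries and the neighbouring rnu2 is not known, so neither change can be read on its own. With all entries of equal values counted once, protein-coding ones included, the doubled set holds 118 profiles. Each of the 37 copies, LOC121397501 among them, had 7.04, 8.72 and 16.1 TPM at 6.5 hpf and 0 TPM in all 6 libraries of 5.5 hpf. The snRNA entry rnu2 (8L, 111688491 to 111688678), singled out after its values were seen, went the other way with 0, 60.8 and 345 TPM at 6.5 hpf against 234, 362 and 1051 TPM at 5.5 hpf. In Ctrl MO embryos the changes were 2.69 for LOC121397501 and -4.97 for rnu2. The lncRNA with the highest level in the set, LOC121396092 on chromosome 1L (231579943 to 231581614), had 290, 425 and 691 TPM at 6.5 hpf against 36.4, 61.3 and 141 TPM at 5.5 hpf.

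No protein-coding gene that passed the test fell by 1 or more on the log2 scale. The count of falls past the test was 3468 among protein-coding genes, of which 91 fell by at least 0.5 on the log2 scale. All 6 later libraries lay below all 6 earlier ones for 2.65% of tested entries. The largest fall among the named genes was that of ccnb3.S, cyclin B3 of the mitotic and meiotic divisions (chromosome 8S, 47943906 to 47960183). It measured 47.5, 36.0 and 43.8 TPM in the 3 sets of biological replicate 1 and 10.8, 10.7 and 12.2 TPM in those of biological replicate 2 at 6.5 hpf, against 63.1, 63.5 and 70.0 TPM and 28.6, 25.4 and 28.7 TPM at 5.5 hpf. Within each frog the ages did not overlap, and the change was -0.92 ± 0.11 (limma, adjusted p = 1.95e-04).

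The other named falls ranged from respiratory chain to ribosome biogenesis genes. They included ndufa1.S, a subunit gene of respiratory complex I, with 3.89 to 7.04 TPM at 6.5 hpf against 9.34 to 13.1 TPM at 5.5 hpf (change of -0.92 ± 0.12), and rbis.S, a ribosome biogenesis factor gene, with 18.9 to 31.6 TPM against 35.2 to 50.4 TPM (change of -0.83 ± 0.12). The inhibitor of NF-kappa-B gene nfkbia.L fell by 0.72 ± 0.07 and had 18.4 to 25.9 TPM at 6.5 hpf against 31.1 to 39.8 TPM at 5.5 hpf. The small GTPase gene arl4a.S fell by 0.72, nopchap1.S by 0.73, urb2.L, which acts in ribosome biogenesis, by 0.70, stk31.L by 0.68, znf593.S by 0.66, the cytochrome oxidase subunit gene cox6b1.L, kxd1.S and orc5.L, of the origin recognition complex, by 0.63 to 0.64. All 12 kept a negative change with centred libraries, and 11 of them still passed the test, the exception being cox6b1.L with an adjusted p of 0.079 in limma.

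**Figure D3:**
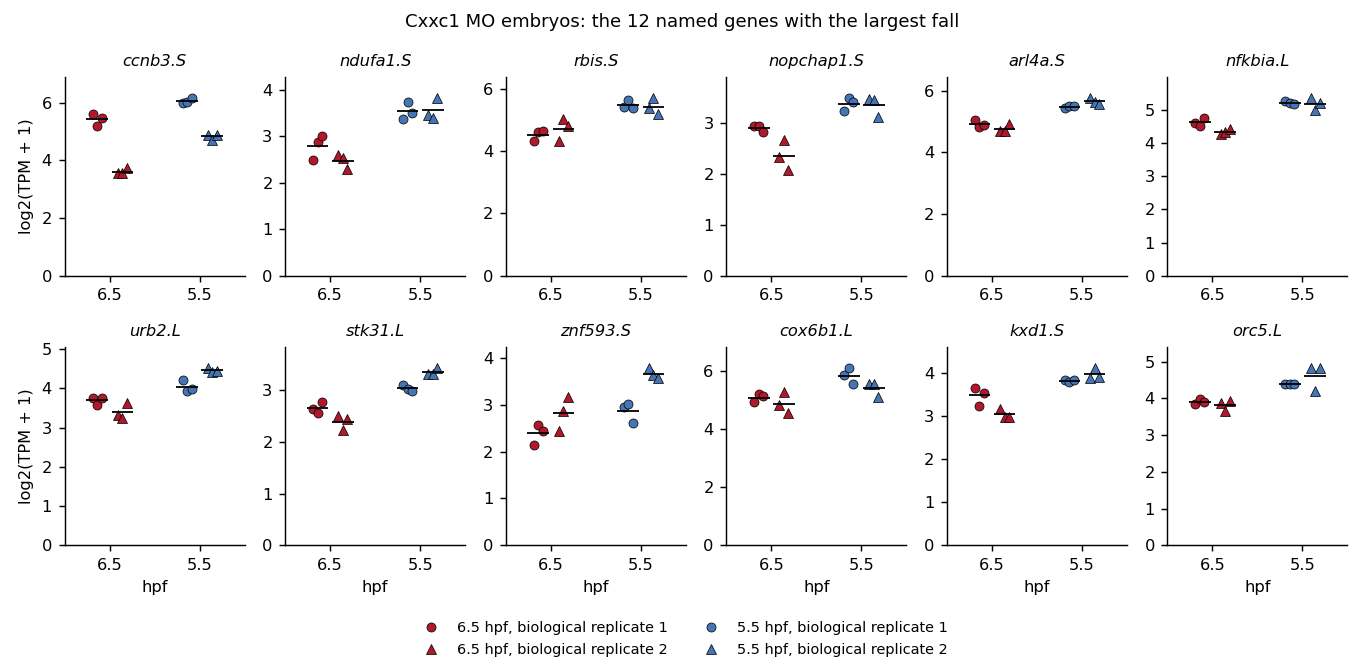
Log2(TPM + 1) in each Cxxc1 MO library for the 12 named genes with the largest fall among those of at least 5 TPM at the higher age in both frogs; red marks 6.5 hpf and blue 5.5 hpf, circles are biological replicate 1 and triangles biological replicate 2, and lines are means of 3 sets. The falls span less than 1 log2 unit in the fit of both frogs, and ccnb3.S shows the widest gap between the frogs.

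Lists of genes with maternal roles had falls and no rises. Of 74 entries for regulators of maternal mRNA translation and deadenylation 70 were tested, 0 rose and 31 fell (44.3%, beside 20.0% of all tested entries), with a median of -0.21 beside -0.15 over all. With centred libraries 5 rose and 11 fell (15.7%, beside 5.42%). The deadenylase gene parn.L was among those that fell, with 95.0 to 108 TPM at 6.5 hpf against 116 to 148 TPM at 5.5 hpf (change of -0.36 ± 0.07), as was the poly(A)-binding protein gene pabpn1l.L (-0.42 ± 0.06). The deadenylase adaptor gene btg4.L had 238 to 299 TPM at 6.5 hpf against 226 to 386 TPM at 5.5 hpf and did not pass the test. Tested alone, biological replicate 1 had 1 fall in this list and biological replicate 2 had 54, beside 35 and 9792 over all entries.

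Germ plasm and vegetally localized mRNAs gave 11 falls and 0 rises among 33 tested of 36 entries (33.3%, beside 20.0% of all tested entries), with a median of -0.22, and 2 falls with centred libraries (6.06%, beside 5.42%). The germ plasm gene germes.L fell most, with 23.5, 30.4 and 34.0 TPM at 6.5 hpf against 35.0, 45.0 and 53.0 TPM at 5.5 hpf (change of -0.59 ± 0.08). The RNA-binding protein gene dazl.L (-0.37) and the ubiquitin ligase gene trim36.L (-0.36) fell too and did not pass with centred libraries. Cell cycle genes gave 20 falls and 0 rises among 67 tested of 73 entries (29.9%, beside 20.0% of all tested entries), with a median of -0.14 beside -0.15 over all, and with centred libraries 8 rose and 5 fell (7.46%, beside 5.42%). Beside ccnb3.S, those that fell included mad2l1.L of the spindle checkpoint (-0.49 ± 0.13) and the mitotic kinase gene cdk1.L (-0.34 ± 0.07), which had 176 to 215 TPM at 6.5 hpf against 206 to 268 TPM at 5.5 hpf. Tested alone, biological replicate 1 had 1 fall in the germ plasm list and 1 in the cell cycle list. Biological replicate 2 alone had 19 and 49. Over all 18059 entries biological replicate 1 alone had 35 falls and biological replicate 2 alone 9792.

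Genes of the H3K4 methylation machinery had 16 falls and 0 rises among 45 tested of 46 entries (35.6%, beside 20.0% of all tested entries), with a median of -0.22 beside -0.15 over all. With centred libraries 5 rose and 6 fell (11.1% and 13.3%, beside 9.18% and 5.42%). Tested alone, biological replicate 1 had 0 falls in this list and biological replicate 2 had 32, beside 35 and 9792 over all entries. The gene kmt2e.S fell by 0.41 ± 0.11, with 13.4 to 18.4 TPM at 6.5 hpf against 17.7 to 26.2 TPM at 5.5 hpf. The catalytic partner of Cxxc1 encoded by setd1b.L had 16.7 to 22.7 TPM at 6.5 hpf against 19.7 to 27.8 TPM at 5.5 hpf, a fall of 0.30 ± 0.09 that did not pass with centred libraries. The cxxc1.S transcript changed by -0.03 ± 0.06 (adjusted p = 0.72 in limma).

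Ribosomal protein genes named rpl or rps filled 141 entries, of which 137 were tested, 31 rose (22.6%, beside 2.98% of all tested entries), 0 doubled and 5 fell, with a median of 0.06. With centred libraries 67 rose (48.9%, beside 9.18%) and 1 fell. In Ctrl MO embryos 65 rose and 1 fell, beside 610 and 420 of all 18059 entries, with a median of 0.30 beside -0.06 over all. The frogs differed. Tested alone, biological replicate 1 of the Cxxc1 MO had 7 rises and 1 fall, with a median of 0.24 beside -0.01 over all entries. Biological replicate 2 had 19 rises and 35 falls, with a median of -0.09 beside -0.29.

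The 2 frogs differed in the median change of all entries. The change in biological replicate 2 was lower than in biological replicate 1 for 5829 of 18059 entries (32.3%) and higher for 118 (0.653%) by limma's interaction of frog and age. Taken alone, biological replicate 2 gave 9792 falls and a median of -0.29, and biological replicate 1 gave 35 falls and a median of -0.01. With TPM rescaled over protein-coding genes, 257 entries were lower and 139 higher, and with centred libraries 71 and 154. The share of protein-coding TPM, given above, moved in opposite directions in the 2 frogs, and its part in these counts was tested only through these rescalings. Of the 94 doubled genes, 74 had the larger change in biological replicate 2 (median 1.97 against 1.56 in biological replicate 1), and 17 passed the test of the difference. The gene mix1.L changed by 2.93 in biological replicate 2 and by 1.32 in biological replicate 1, and rasl11b.L, a gene of a Ras-like GTPase, by 1.24 and 2.33.

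**Figure D4:**
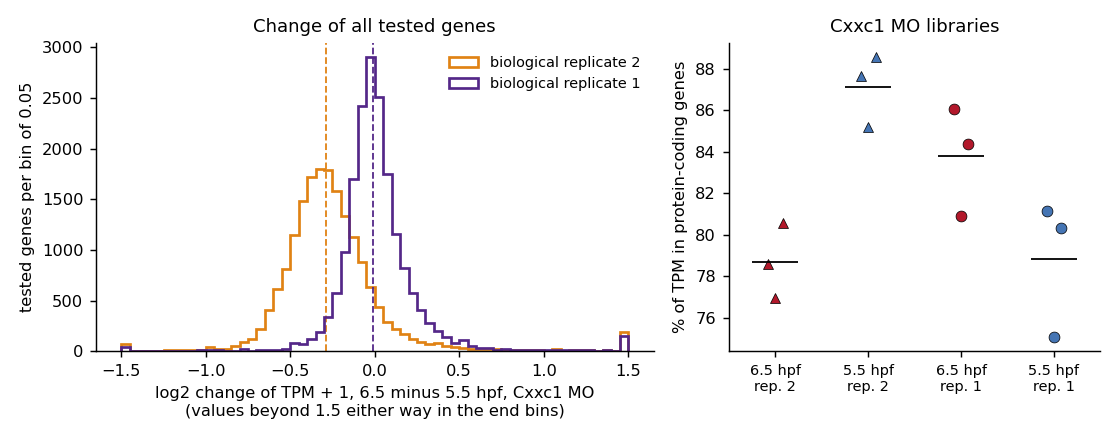
Left, change of log2(TPM + 1), 6.5 minus 5.5 hpf, of all 18059 tested entries in Cxxc1 MO embryos of biological replicate 2 (orange) and biological replicate 1 (purple), with dashed medians at -0.29 and -0.01; right, percent of TPM in protein-coding genes in each Cxxc1 MO library, 6.5 hpf in red and 5.5 hpf in blue, with lines at means of 3 sets (the axis does not start at 0). The orange curve lies to the left, and the protein-coding share is lower at 6.5 hpf in biological replicate 2 and higher in biological replicate 1.

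Whether the hour ran differently without Cxxc1 was asked by the interaction of knockdown and age. Of 18059 entries 0 differed from Ctrl MO (0%) at an adjusted p under 0.05 in limma, with 2523 at an unadjusted p under 0.05, of which 2453 were lower and 70 higher in Cxxc1 MO embryos. The smallest adjusted p was 0.093. Among protein-coding genes with a name the smallest p in the lower direction were those of adprh.L, hes7.2.L and zic1.S. The gene hes7.2.L reached 1.56, 2.69 and 3.55 TPM in Cxxc1 MO against 3.23, 5.66 and 11.1 TPM in Ctrl MO embryos at 6.5 hpf, and its hour change was lower by 0.99 ± 0.18 (adjusted p = 0.105). The gene zic1.S reached 0.896, 2.02 and 3.34 TPM against 3.04, 5.90 and 10.8 TPM, with an hour change of 1.13 against 2.23 (adjusted p of the difference = 0.118). Neither lower change was particular to the Cxxc1 MO. In Kmt2b MO embryos zic1.S changed by 1.299. The change of hes7.2.L was 1.882 in Kmt2b MO, 1.695 in Cxxc1 MO and 2.684 in Ctrl MO embryos. The difference between Kmt2b MO and Ctrl MO embryos was not tested. In biological replicate 1 the Cxxc1 MO means at 6.5 and 5.5 hpf were 1.67 and 0 TPM for hes7.2.L. For zic1.S they were 1.31 and 0.325 TPM. The filter averaged all groups, and there both genes passed it only with the values of groups other than the Cxxc1 MO. Their place among the smallest p is therefore not separate evidence of a lower change. For adprh.L, which had 10.3 to 19.1 TPM at 6.5 hpf against 14.1 to 18.8 TPM at 5.5 hpf in Cxxc1 MO embryos, the change was -0.22 in Cxxc1 MO and 0.23 in Ctrl MO embryos.

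In the higher direction the smallest p were those of szrd1.L, pik3ip1.L and wars2.S, none of which passed the test of the hour within Cxxc1 MO embryos. The gene szrd1.L measured 149, 174 and 188 TPM at 6.5 hpf against 147, 172 and 193 TPM at 5.5 hpf in Cxxc1 MO embryos, and 92.9, 102 and 103 TPM against 119, 128 and 139 TPM in Ctrl MO embryos. The difference of the changes was 0.36 ± 0.06 (adjusted p = 0.093 in limma), and it passed the test in the protein-coding and the centred scaling (smallest adjusted p of 0.0025 and 0.0117), where it was the 1 gene called. The levels were not particular to the Cxxc1 MO. In Kmt2b MO embryos szrd1.L had 159 to 188 TPM at 6.5 hpf against 162 to 201 TPM at 5.5 hpf. In NI Ctrl embryos it had 93.2 to 115 TPM against 107 to 131 TPM.

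Genes chosen in other embryos had smaller changes in Cxxc1 MO than in Ctrl MO embryos. In uninjected embryos 120 protein-coding genes at least doubled over this hour, and these libraries enter neither of the compared groups. Of the 120, 109 rose and 92 doubled in Cxxc1 MO embryos, against 116 and 109 in Ctrl MO embryos. Their median change was 1.59 in Cxxc1 MO and 2.11 in Ctrl MO embryos. The change was lower in Cxxc1 MO for 111 of the 120 (92.5%), beside 81.3% of all tested entries, with a median difference of -0.55 beside -0.09 over all. The median SE of these differences was 0.23. Of the 120 genes 64 had an unadjusted p under 0.05 in limma in the lower direction and 0 in the higher. Over all 18059 entries these counts were 2453 lower and 70 higher, so the main scaling was itself one-sided. With centred libraries 104 of the 120 were lower, beside 45.0% of all entries, with a median difference of -0.45 beside 0.01. There 55 of the 120 had an unadjusted p under 0.05 in the lower direction and 0 in the higher. Over all entries 600 were lower and 888 higher with centred libraries. The 120 include the 5 entries named above that had the same value in every library, each counted.

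Per library, the mean log2(TPM + 1) of the 120 genes was 2.50 ± 0.10 at 6.5 hpf and 1.15 ± 0.12 at 5.5 hpf in Cxxc1 MO embryos of biological replicate 1 (SD, n = 3 sets), against 2.89 ± 0.09 and 1.15 ± 0.06 in Ctrl MO embryos. In biological replicate 2 it was 2.97 ± 0.11 and 1.21 ± 0.11 in Cxxc1 MO against 3.75 ± 0.22 and 1.37 ± 0.20 in Ctrl MO embryos. The 3 Cxxc1 MO sets of 6.5 hpf lay below the 3 Ctrl MO sets of the same age in both frogs. The lists of doubled protein-coding genes overlapped in 92 genes, 97.9% of the Cxxc1 MO list and 81.4% of the 113 of the Ctrl MO list. Of the 21 genes doubled by the Ctrl MO call alone, 15 rose in Cxxc1 MO embryos.

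**Figure D5:**
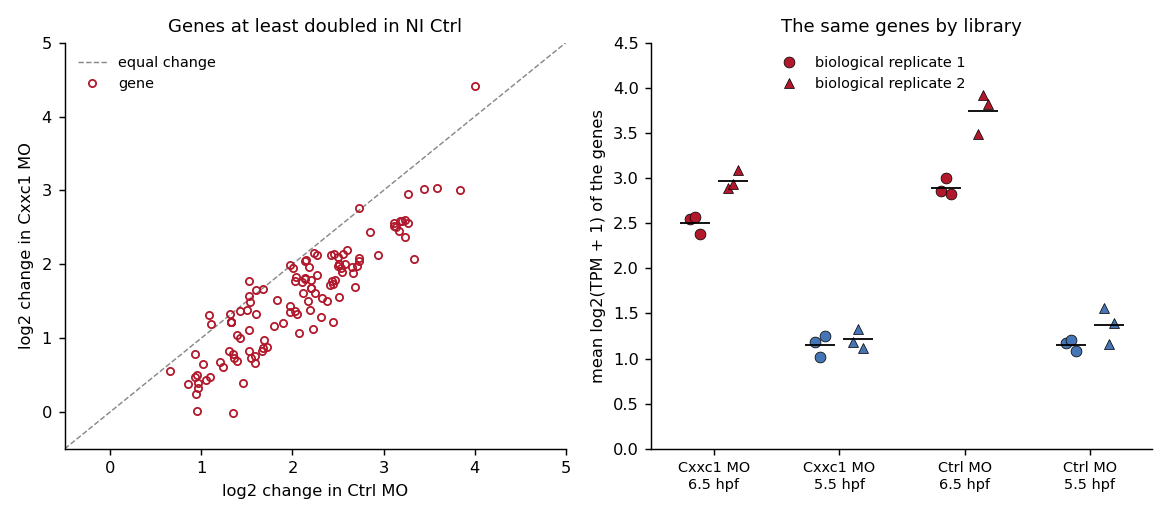
Left, log2 change from 5.5 to 6.5 hpf in Cxxc1 MO (vertical) against Ctrl MO (horizontal) embryos for 120 protein-coding genes that at least doubled in NI Ctrl, with the dashed line of equal change; right, mean log2(TPM + 1) of the same genes in each library, circles for biological replicate 1, triangles for biological replicate 2, lines for means of 3 sets. Of the points, 111 lie below the line, and at 6.5 hpf the Cxxc1 MO sets sit below the Ctrl MO sets in both frogs.

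Against Kmt2b MO embryos the same interaction called 0 of 18059 entries (0%), with 884 at an unadjusted p under 0.05 and a smallest adjusted p of 0.891 in limma. Of the 120 genes chosen in uninjected embryos 77 (64.2%) had the lower change in Cxxc1 MO, beside 77.3% of all entries, with a median difference of -0.09 and a median SE of 0.25. With centred libraries these were 69 (57.5%), beside 50.3%. In Kmt2b MO embryos 102 of the 120 rose and 90 doubled, with a median change of 1.69. The change of pou5f3.2.S was 1.79 with the Cxxc1 MO, 1.90 with the Kmt2b MO and 2.47 with the control morpholino. The named genes with the smallest p were rbmx2.L, ttc9.S and ammecr1l.L in the lower direction and bicdl1.L, rffl.S and ptrh2.L in the higher, with differences between -0.40 and 0.51.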

How the data were processed

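Whole-embryo RNA, depleted of rRNA, was sequenced from Xenopus laevis embryos. The authors pseudoaligned reads with kallisto (0.48, per the submitters' processing notes) to Xenbase transcripts of assembly v10.1, added up isoforms and deposited the TPM of each gene, with 1 table of 36 libraries and 39668 entries per frog. TPM keep no read counts, so depth and counting error are unknown. Here the 2256 tRNA entries were dropped and TPM rescaled to 1000000. Entries that averaged at least 1 TPM in each table, over all groups at the 2 ages, were tested on log2(TPM + 1). Its pseudocount understates the changes of low genes. The tests used limma 3.58.1 (eBayes with trend, R 4.3.3) and Benjamini-Hochberg adjustment. The fits were tested on simulated data with independent noise for each library and gene. No difference of the change between frogs and no shift of whole libraries was put in. That test therefore does not cover these 2 features of the real libraries. Names, kinds and coordinates came from RefSeq's table of the same assembly, which matched 36677 of 37412 entries. The named genes were protein-coding genes with a symbol: the 12 largest rises and falls past the test with at least 5 TPM in both tables at the higher age and 1 direction in both, the 3 smallest p each way against Ctrl MO and Kmt2b MO, members of the lists, and cxxc1. Members and lists were chosen with earlier results of these data known. No entry was matched for the miR-427 list, cxxc1.L, kmt2b and the mitochondrial genome, which were not analysed here. Alternatives covered the pseudocount, filter, scaling, replicate block, frog and each library.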

Additional observations from a re-analysis of the deposited data

Results flagged for a closer look

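The 96 named genes were screened in groups of 6 libraries by Dixon's criterion, which chance exceeds in about 1 group in 20 for libraries of 1 source. Each group joined 3 sets of each of 2 frogs, whose levels differed for some genes. That rate therefore need not apply here, and few flags do not show that the libraries were alike. In 4 of 192 groups, 1 library stood apart from the other 5. These were kxd1.S at 5.5 hpf, with 16.5 TPM in set II.2 and 14.0 TPM in the next library, nodal3.2.L at 5.5 hpf, with 1.54 TPM in set II.2 and 0.476 TPM in the next, sox17a.S at 6.5 hpf, with 1.70 TPM in set I.3 and 2.66 TPM in the next, and plk3.S at 5.5 hpf, with 138 TPM in set I.2 and 150.0 TPM in the next.

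For 26 of the 96 named genes the change in biological replicate 2 differed from that in biological replicate 1 by limma's interaction test. Over all 18059 tested entries 32.3% were lower and 0.653% higher in biological replicate 2, so the count does not set the named genes apart. Among genes switched on, the difference was 1.89 for bix1.3.L, 1.61 for mix1.L, 1.58 for btg5.2.S, 1.11 for sox17b.1.S, 1.06 for gdf3.S, 1.00 for bix1.2.S, 0.99 for foxh1.2.L, 0.88 for not.S, 0.78 for bix1.1.S and 0.65 for cxcr4.S, and -1.09 for rasl11b.L. Among the other genes it was -0.71 for urb2.L, -0.67 for rffl.S, -0.61 for mad2l1.L, -0.60 for ccnb3.S, -0.59 for kxd1.S, -0.58 for stk31.L, -0.51 for kmt2e.S, -0.51 for pik3ip1.L, -0.48 for plk3.S, -0.46 for btg4.L, -0.43 for not.L, -0.33 for parn.L, -0.33 for arl4a.S, -0.30 for rbmx2.L and -0.30 for ammecr1l.L, beside a median of -0.28 over all tested entries.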

How the results depend on the processing

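The count of doubled entries moved less than the count of falls, which rests on small shifts. Leaving out 1 library at a time gave 377 to 575 risen, 1054 to 7086 fallen, 148 to 170 doubled and 8 to 24 halved entries, and 0 to 1 higher and 0 to 19 lower entries against Ctrl MO. Against 3614 with all libraries, falls numbered 2360, 7086, 2026, 1055, 1919 and 1054 without 5.5 hpf sets I-1, I-2, I-3, II-1, II-2 and II-3 in turn, and 2110, 1076, 1117 and 1310 without 6.5 hpf sets I-2, II-1, II-2 and II-3. Halved entries numbered 10 and 8 without 5.5 hpf sets II-1 and II-3, and 9 and 10 without 6.5 hpf sets II-1 and II-2. Without Ctrl MO 5.5 hpf set I-1, 1 entry was higher and 19 lower against Ctrl MO, without I-2 0 and 1, and without I-3 1 and 1.

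With no filter on low values, 1822 fell and 6 were halved, and against Ctrl MO 1 was higher and 15 lower. A mean of at least 5 TPM left 34 doubled. Protein-coding genes alone gave 6319 falls, 103 doubled, 0 halved, 1 higher against Ctrl MO and 257 lower in biological replicate 2. Centring gave 1658 rises, 979 falls, 7 halved, 1 higher against Ctrl MO and 71 lower in biological replicate 2. Biological replicate 1 alone gave 221 rises, 35 falls, 12 halved and 1 higher against Ctrl MO, and biological replicate 2 alone 9792 falls and 43 halved. A log2 change of at least 2 was reached by 86 risen and 5 fallen entries. With the interaction of frog and age in the fit 7231 fell. Against NI Ctrl in place of Ctrl MO, 29 were lower. Dropping rRNA entries too, chosen after seeing the data, gave 9101 falls, 1 higher against Ctrl MO, and 63 higher and 450 lower in biological replicate 2. The cause of these shifts was not tested.

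With the set number as a replicate block, 303 rose, 557 fell, 151 doubled and 8 were halved. Same-numbered Cxxc1 MO sets correlated between -0.03 and 0.10 in their deviations, above 0.1 in 1 of 6 pairs, so the numbers were not taken as pairs. Over all values of single named genes under these settings, 0 reversed among results that had passed the test. Significance was lost in 89 and gained in 63. A further 222 changed sign where the main result had not passed the test. TPM hold no depth, so counting error in low genes is unknown.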
